A study of Mus musculus with 14 samples.

Results

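Interferon response genes were followed in regulatory T cells (Tregs) that lack the miRNAs miR-15 and miR-16 and in WT Tregs with low or high CD25. The 41 members are genes known to be induced by interferons. They were chosen by name, with earlier results of these data known. All 41 were found among the 48363 genes with values in the deposited table. RNA-seq covered 14 libraries: 5 of cKO Tregs (Foxp3-Cre with both alleles of the miRNA loci flanked by loxP sites, fl/fl), 4 of WT Tregs (Foxp3-Cre with unflanked loci, wt/wt), and 2 of CD25lo and 3 of CD25hi Tregs sorted from wt/wt Foxp3-Cre mice. All mice, controls included, carried B6.129(Cg)-Foxp3tm4(YFP/icre)Ayr/J, in which Cre and YFP are made from the endogenous Foxp3 locus, so that the flanked loci, miR-15b/16-2 and miR-15a/16-1, are lost only once a cell has expressed Foxp3. The cells came from untreated mice, from spleen pooled with axillary, brachial and inguinal lymph nodes, and were sorted by the FOXP3-YFP reporter. The age of the mice behind each library and the animals behind each replicate number are not given in the sources used here, so the p-values measure the spread between libraries. CD25 is the alpha chain of the IL-2 receptor, and its level divides Tregs into the CD25hi and CD25lo bins. Values are normalized counts, that is reads of a gene divided by the size factor of the library.

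Type I interferons signal through IFNAR1 and IFNAR2 to a transcription factor complex with IRF9 that binds interferon-stimulated response elements, while interferon gamma signals through its own receptor to factors that bind gamma-activated sites. The genes these pathways switch on include proteins that block viral RNA, sensors of foreign RNA and DNA, GTPases that act on the vacuoles of intracellular pathogens, and the parts of the immunoproteasome and MHC class I pathway. T cells keep a low tonic level of many of these genes without infection, and IRF1 and GBP genes answer strongly to interferon gamma.

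The promoters were searched for the elements that interferon signaling uses. RefSeq promoters (250 bases before to 50 bases after the start, GRCm38.p6) matched 32 of the 41 members. The core of the interferon-stimulated response element, GAAANNGAAA on either strand, lay in 16 of these 32 promoters and in 3.44% of all 32851 promoters of the same length. The gamma-activated site TTCNNNGAA, which reads the same on both strands, lay in 10 of the 32 and in 8.3% of all promoters. A promoter counted once however many matches it held, and overlapping matches, such as the 3 in Isg15, were allowed. The windows of Gbp7, Gbp3 and Gbp2 are shown because these were the members that passed the test in CD25lo Tregs, that of Oas1a because it passed upward in cKO Tregs, and those of Oas3 and Ifit1 for comparison, with the match in capitals.
Gbp7 (chr3:142530273-142530302, gene on the plus strand): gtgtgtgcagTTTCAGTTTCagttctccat
Gbp3 (chr3:142559989-142560018, gene on the plus strand): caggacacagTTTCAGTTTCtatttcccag
Gbp2 (chr3:142620594-142620623, gene on the plus strand): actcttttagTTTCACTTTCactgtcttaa
Oas1a (chr5:120907520-120907549, gene on the minus strand): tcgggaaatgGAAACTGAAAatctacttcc
Oas3 (chr5:120777715-120777744, gene on the minus strand): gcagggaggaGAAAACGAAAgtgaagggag
Ifit1 (chr19:34640775-34640804, gene on the plus strand): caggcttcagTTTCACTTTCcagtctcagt
The marked matches of Gbp7, Gbp3 and Gbp2 began 53, 45 and 59 bases before the start, all on the strand opposite to the gene. Gbp3, Oas1a and Ifit1 each held a further match, beginning 39, 20 and 85 bases before the start, which is not marked.

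The deleted miRNAs share their seed, bases 2 to 8, shown in capitals (RefSeq, GRCm38.p6). Mature miR-15a lies at chr14:61632075-61632096, miR-15b at chr3:69009775-69009796, and miR-16 at chr14:61631936-61631957 and chr3:69009918-69009939.
mmu-miR-15a-5p: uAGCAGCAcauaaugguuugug
mmu-miR-15b-5p: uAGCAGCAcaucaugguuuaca
mmu-miR-16-5p: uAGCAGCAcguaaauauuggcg
A match to this seed (TGCTGCT, or GCTGCTA) was found in the longest annotated 3′ UTR of 7 of the 41 members, against 26.7% of the 14810 tested genes with a 3′ UTR (GENCODE annotation of GRCm38, median length 867 bases in the members and 1106 bases in all). The 7 members were Mx1, Rsad2, Ifit3, Oas1a, Irf1, Parp14 and Tap1, and no match was found in the 3′ UTRs of Oas2, Zbp1, Gbp2, Gbp3 or Gbp7. The matches of Oas1a and Tap1, whose values in cKO Tregs all lay above WT, and of Irf1 and Parp14, whose means lay below WT, were the following, with the matching bases in capitals.
Oas1a (chr5:120896933-120896959, minus strand): caggggcattTGCTGCTctgctgcagg
Tap1 (chr17:34196996-34197022, plus strand): ccaacactgaGCTGCTAaatctccggt
Irf1 (chr11:53778069-53778095, plus strand): gggcctgctgTGCTGCTggtcttgctg
Parp14 (chr16:35833396-35833422, minus strand): gataagtgtgTGCTGCTtcagaagtta

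The libraries held 30055573 to 35226685 reads in genes. None of the 4 targeted miRNA genes had a value above 0 in any library, and these data therefore cannot show their deletion. Dleu2, the host transcript of miR-15a/16-1, lay at 2121 to 2713 normalized counts in cKO and 86.3 to 1100 in WT Tregs. Libraries did not match in sex: all 5 cKO libraries had Xist, at 34038 to 43337 normalized counts. WT replicate 3 had 39239, whereas the highest value of any remaining WT or sorted library was 64.6. Genotype and sex therefore cannot be told apart except against WT replicate 3. The Treg markers Foxp3, Cd3e, Cd4, Il2ra, Ikzf2 and Ctla4 summed to 174035 to 186674 normalized counts in cKO, 165136 to 188769 in WT, 137738 to 138344 in CD25lo and 172489 to 182848 in CD25hi Tregs. Il2ra, which encodes CD25, had 15026 and 14682 in CD25lo and 39725, 41188 and 39583 in CD25hi Tregs, and 13359 to 17141 in cKO and 24206 to 29151 in WT Tregs. The 9 myeloid markers summed to 1260 to 4873 in cKO and 1651 to 7447 in WT Tregs, the 6 B cell markers to 978 to 1295 in cKO and 536 to 957 in WT, and the 6 plasmacytoid dendritic cell markers to 719 to 1120 in cKO and 530 to 764 in WT Tregs. In the sorted bins, myeloid markers summed to 1815 to 2021 in CD25lo and 1267 to 1920 in CD25hi, B cell markers to 594 to 741 in CD25lo and 448 to 665 in CD25hi, and plasmacytoid markers to 376 to 528 in CD25lo and 505 to 609 in CD25hi Tregs. Some genes of these lists were absent or low. Cox6a2 and Klk1 were at 0 in every library, Siglech at no more than 21.0, and Ms4a1 and Cd14 at 0 in the sorted bins. Others were detected, and limma called 1 of 4 tested plasmacytoid markers higher in cKO than in WT Tregs, where 2.04% of all genes were. At an unadjusted p under 0.05 from limma, 2 of 5 tested B cell markers were higher in cKO (9.57% of all genes). By the same measure, 4 of 9 myeloid markers were lower in cKO (6.56% of all genes). Immediate early genes, which rise during cell handling and receptor stimulation, summed to 301697 to 609814 in cKO, 642518 to 691668 in WT replicates 1 to 3, and 186719 to 255081 in WT replicate 4 and the sorted bins. The part of these other cells, of handling and of sex in the results was not tested except where values without them are given. Fewer cells that express a gene and less RNA per cell cannot be told apart in such libraries.

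In cKO against WT Tregs, few members passed the test and most estimates lay below 0. Oas2 and Zbp1, an RNA-activated antiviral enzyme and a nucleic acid sensor, fell, as did the guanylate-binding proteins Gbp2 and Gbp7, and Oas1a rose. In the fit over all genes (limma-trend over 16241 genes, 4 group means, Benjamini-Hochberg adjusted p under 0.05), 1 of 41 members was called higher, where 2.04% of all genes were, and 4 were called lower, where 1.48% of all genes were. The estimate was below 0 for 31 members and above 0 for 10, whereas 57% of all genes lay above 0. The median log2 fold change was -0.10 over the members and 0.05 over all genes tested. At a mean of at least 300 normalized counts, 39 members had a median of -0.10 and all 8707 genes a median of -0.00. At an unadjusted p under 0.05, 13 members were lower, where 6.56% of all genes were, and 2 were higher, where 9.57% were. The values of all 5 cKO libraries lay below all 4 WT libraries for 9 members, against 3.62% of all genes, and above them for 2 members (Oas1a and Tap1), against 4.92% of all genes.

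**Figure D1:**
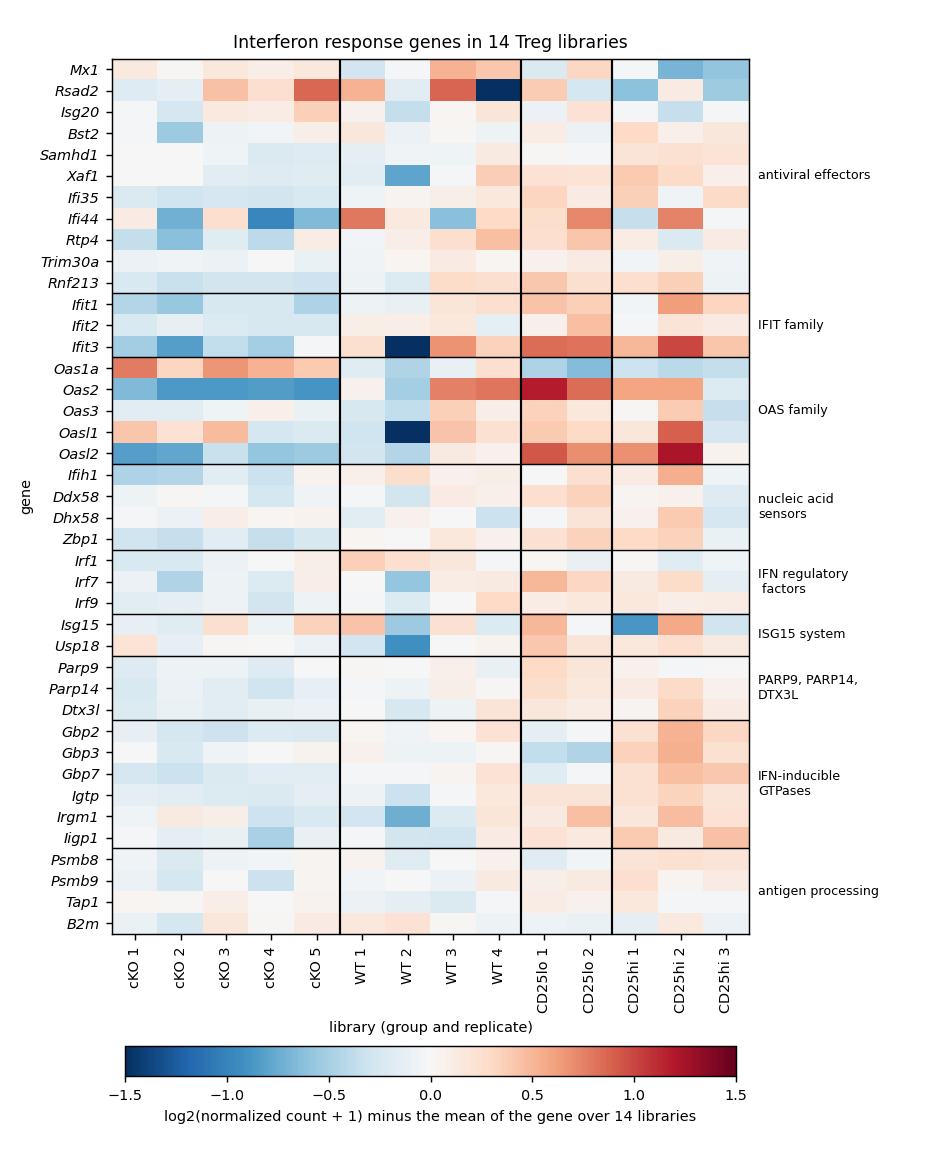
Levels of the 41 members in 14 libraries. Each row is a gene, grouped by role, each column a library, and the colour is log2(normalized count + 1) minus the mean of that gene over the 14 libraries, with colours held at -1.5 and 1.5. Oas2, Zbp1 and Gbp2 are low in all 5 cKO libraries, Oas1a is high there, and WT replicate 2 is low for Ifit3 and Oasl1.

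In CD25lo against CD25hi Tregs, 3 GTPases, Gbp2, Gbp3 and Gbp7, fell in CD25lo Tregs. These 3 of 41 members were the ones called lower, where 1.01% of all genes were. No member was called higher, where 0.61% of all genes were, and edgeR, DESeq2 and limma-voom also called 0 higher. At an unadjusted p under 0.05, 3 members (Ddx58, Oas2 and Parp9) were higher, where 6.51% of all genes were, and 5 were lower, where 6.95% were. The median log2 fold change of the members was 0.06, with 0.00 over all genes tested, and 27 members lay above 0 (65.9%), where 49.4% of all genes did. With 2 libraries against 3, the groups did not overlap for 5 members in the upward direction, against 12.9% of all genes, and for 6 members in the downward direction, against 11.6% of all genes. The upward shares, 7.32% at the unadjusted p and 12.2% without overlap, were close to those of all genes.

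**Figure D2:**
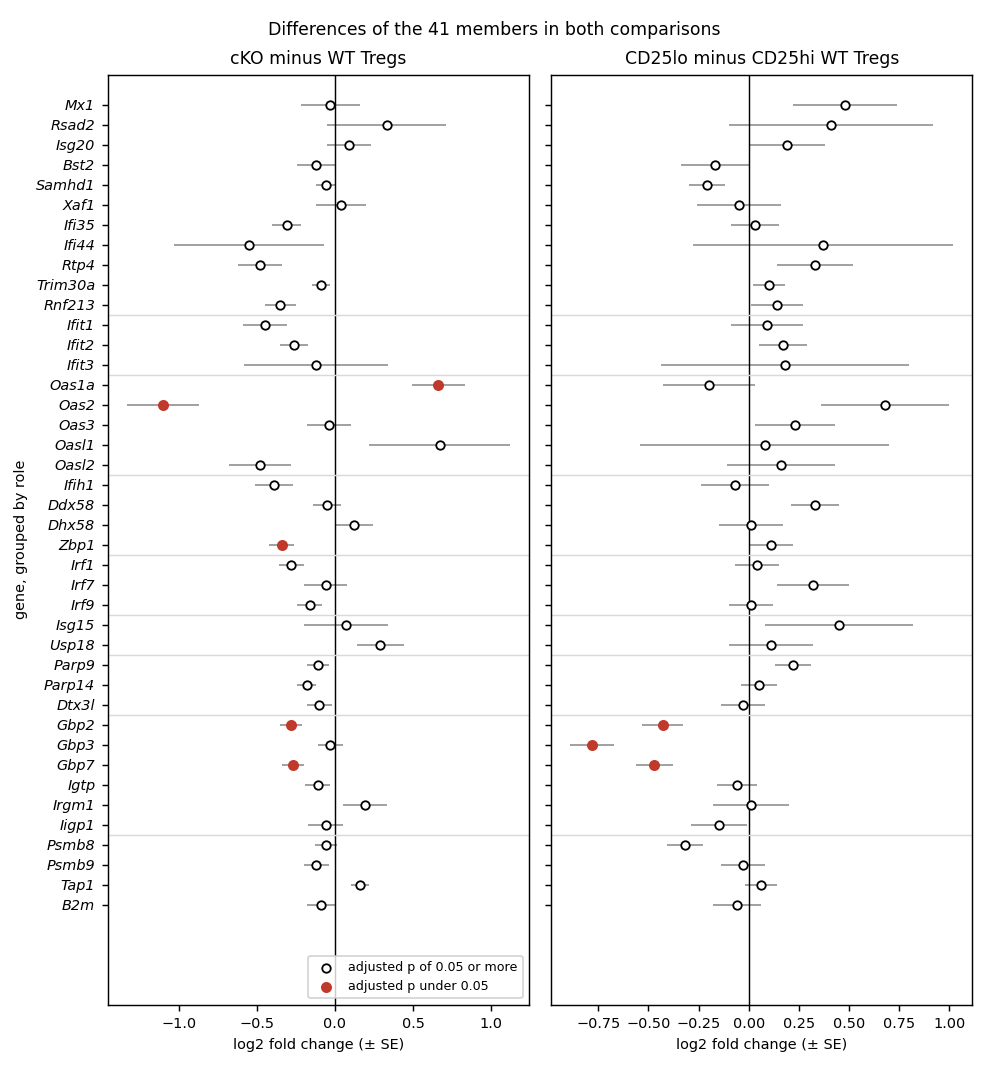
Log2 fold changes of the 41 members with standard errors (bars), cKO minus WT on the left and CD25lo minus CD25hi on the right, grouped by role; filled points have an adjusted p under 0.05. On the left 31 of 41 points lie below 0, and on the right 27 lie above 0 while Gbp2, Gbp3 and Gbp7 lie furthest below.

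The OAS family holds 2′-5′ oligoadenylate synthetases, which are switched on by double-stranded RNA and activate RNase L, and related OASL proteins. Within this family 1 member fell and 1 rose in cKO Tregs. Oas2 had 412, 358, 358, 365 and 352 normalized counts in cKO Tregs, against 684, 456, 1102 and 1140 in WT Tregs. It fell in cKO Tregs (log2 fold change -1.10, SE 0.23, adjusted p = 0.0117 from limma), and the groups did not overlap, with WT replicate 2 nearest to the cKO libraries. Of the 14 fits that each left out 1 library, the call was lost without WT replicate 3 (adjusted p = 0.0501). In CD25lo Tregs Oas2 had 1475 and 1162 normalized counts, against 980, 984 and 565 in CD25hi Tregs, which did not overlap but did not pass the test (log2 fold change 0.68, SE 0.32, adjusted p = 0.3647).

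Oas1a was the member that rose. It had 825, 601, 759, 688 and 632 normalized counts in cKO Tregs, against 423, 349, 442 and 569 in WT Tregs (log2 fold change 0.66, SE 0.17, adjusted p = 0.0378), 1.58 times the WT level. All cKO values lay above all WT values, but the call was lost without cKO replicate 1, 3, 4 or 5 or WT replicate 1, 2 or 3, with adjusted p values of up to 0.1252. In the sorted bins it had 346 and 306 in CD25lo and 386, 362 and 375 in CD25hi Tregs (log2 fold change -0.20, SE 0.23, adjusted p = 0.7648), so both bins lay below every cKO library. Oas3, which lies between Oas2 and Oas1a on chromosome 5, had 1737, 1719, 1848, 2042 and 1799 in cKO and 1635, 1495, 2484 and 2063 in WT Tregs, with overlapping groups (log2 fold change -0.04, SE 0.14, adjusted p = 0.9294). In CD25lo Tregs Oas3 had 2460 and 2147, against 1957, 2521 and 1517 in CD25hi Tregs (log2 fold change 0.23, SE 0.20, adjusted p = 0.6549). The OASL genes did not pass the test: Oasl2 ranged from 386 to 546 in cKO and 507 to 750 in WT Tregs (log2 fold change -0.48, SE 0.20, adjusted p = 0.2245), and Oasl1 from 223 to 371 in cKO and 45.9 to 358 in WT Tregs (log2 fold change 0.67, SE 0.45, adjusted p = 0.5146). The lowest Oasl1 value was that of WT replicate 2.

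The OAS genes are close copies of each other on chromosome 5 (GRCm38, 120730333 to 120921652), and how reads shared by copies were assigned is not given in the sources used here. Of the 10 genes in this stretch, 5 passed the filter. Beside the members, Oas1c and Oas1b, looked up after the values of Oas1a were seen, had log2 fold changes of 0.16 and 0.13 in cKO against WT Tregs (adjusted p = 0.5846 and 0.8229 from limma). Oas1g, the neighbour of Oas1a, averaged 0.38 normalized counts in cKO and 4.12 in WT Tregs.

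**Figure D3:**
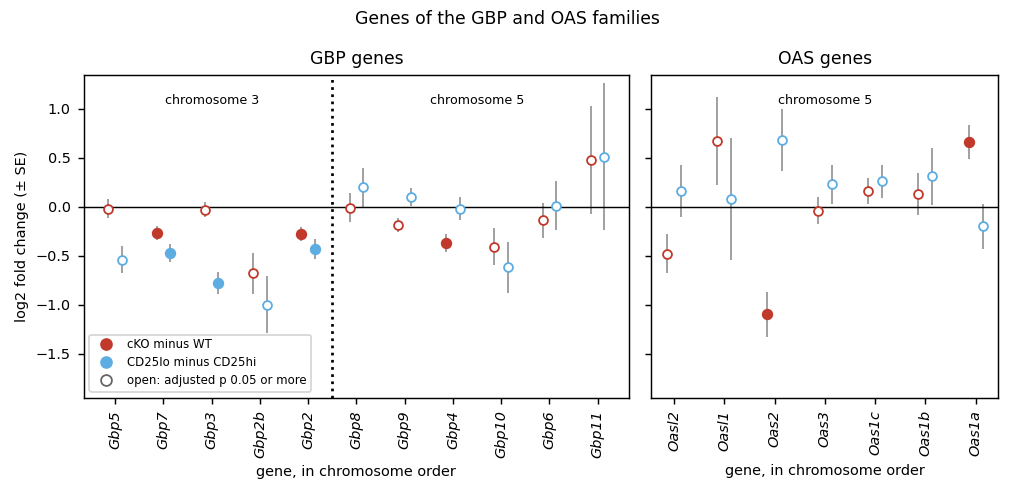
Log2 fold changes with standard errors (bars) of GBP genes and OAS genes in their order along the chromosome, cKO minus WT in red and CD25lo minus CD25hi in blue; filled points have an adjusted p under 0.05. The 5 GBP genes of chromosome 3 all lie below 0 in CD25lo Tregs, between -1.0 and -0.43, and Oas2 and Oas1a lie on opposite sides of 0 in cKO Tregs.

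Guanylate-binding proteins (GBPs) and immunity-related GTPases (IRGs) are GTPases induced by interferon gamma that attack the vacuoles of intracellular pathogens. Among the 6 members of this role, 2 fell in cKO Tregs and 3 in CD25lo Tregs, all of them GBPs of one cluster on chromosome 3. Gbp3 had 2380 and 2238 normalized counts in CD25lo Tregs, against 3886, 4441 and 3581 in CD25hi Tregs, a fall to 0.584 times the CD25hi level (log2 fold change -0.78, SE 0.11, adjusted p = 0.0010). In cKO Tregs Gbp3 had 3082, 2624, 2960, 3049 and 3190, against 3207, 2918, 2907 and 3109 in WT Tregs, with overlapping groups (log2 fold change -0.03, SE 0.08, adjusted p = 0.9138). The call in CD25lo Tregs was kept without any single library, with adjusted p values of up to 0.0202.

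Gbp7 and Gbp2 fell in both comparisons. Gbp7 had 6149, 5842, 6289, 6554 and 6549 normalized counts in cKO Tregs, against 7227, 7203, 7510 and 8472 in WT Tregs (log2 fold change -0.27, SE 0.07, adjusted p = 0.0306). In CD25lo Tregs it had 6435 and 7145, against 8540, 9971 and 9664 in CD25hi Tregs (log2 fold change -0.47, SE 0.09, adjusted p = 0.0142). Neither pair of groups overlapped. The call of Gbp7 in cKO Tregs was lost without cKO replicate 1, 2 or 3 or WT replicate 3 or 4 (adjusted p of up to 0.0851), and that in CD25lo Tregs without CD25lo replicate 1 or CD25hi replicate 2 or 3 (up to 0.1275). Gbp2 had 3967, 3590, 3489, 3741 and 3722 in cKO Tregs, against 4398, 4173, 4418 and 5001 in WT Tregs (log2 fold change -0.28, SE 0.07, adjusted p = 0.0459), and 3914 and 4260 in CD25lo Tregs, against 5054, 6204 and 5351 in CD25hi Tregs (log2 fold change -0.43, SE 0.10, adjusted p = 0.0362). The groups did not overlap in either comparison, and the differences between the contrasts did not pass the test (adjusted p = 0.4891 for Gbp7 and 0.6346 for Gbp2). The call of Gbp2 in cKO Tregs was lost in 11 of the 14 fits that left out 1 library, all but those without WT replicate 2, CD25hi replicate 1 or CD25hi replicate 2 (adjusted p of up to 0.1237). In CD25lo Tregs it was lost without CD25lo replicate 1 or 2, CD25hi replicate 2 or 3, or WT replicate 1 or 3 (up to 0.1891). For both genes every WT library lay below every CD25hi library, by a narrow margin (8472 against 8540 for Gbp7, 5001 against 5054 for Gbp2). WT and CD25hi Tregs were not compared by a test, and the share of all genes with this order was not counted.

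The cluster on chromosome 3 (GRCm38, 142493978 to 142638008) holds 5 GBP genes, of which Gbp5 and Gbp2b are not members and were looked up after the values of Gbp3 were seen. Gbp5 had 2666 and 2634 normalized counts in CD25lo Tregs, against 3837, 3791 and 3945 in CD25hi Tregs (log2 fold change -0.54, SE 0.14, adjusted p = 0.0568), and Gbp2b ranged from 242 to 547 in CD25lo and 626 to 897 in CD25hi Tregs (log2 fold change -1.0, SE 0.29, adjusted p = 0.0984). All 5 estimates were therefore below 0 in CD25lo Tregs, between -1.0 and -0.43. The 6 tested GBP genes of the cluster on chromosome 5 lay between -0.62 and 0.51 in the same comparison, with 2 below 0, and none passed the test. In cKO Tregs, Gbp4 of the chromosome 5 cluster fell (log2 fold change -0.37, SE 0.09, adjusted p = 0.0210). GBP genes are similar in sequence and those on chromosome 5 overlap in the annotation, so counts of single genes are less certain.

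The IRG members did not pass the test in either comparison. Igtp had 5886, 5799, 5663, 5584 and 5860 normalized counts in cKO and 6179, 5202, 6406 and 7277 in WT Tregs (log2 fold change -0.11, SE 0.08, adjusted p = 0.5151), and 7444 and 7433 in CD25lo and 7640, 8187 and 7410 in CD25hi Tregs (log2 fold change -0.06, SE 0.10, adjusted p = 0.8651). Irgm1, which regulates the other IRGs, had 3506, 3999, 3881, 2947 and 3118 in cKO and 3005, 2198, 3156 and 4140 in WT Tregs (log2 fold change 0.19, SE 0.14, adjusted p = 0.5656). In the bins Irgm1 had 4003 and 4978 in CD25lo and 4121, 5032 and 4229 in CD25hi Tregs (log2 fold change 0.01, SE 0.19, adjusted p = 1.0). Iigp1 ranged from 2390 to 3302 in cKO, 2720 to 3646 in WT, 3689 to 3891 in CD25lo and 3680 to 4552 in CD25hi Tregs, with overlap in both comparisons.

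Nucleic acid sensors detect viral RNA and DNA in the cytosol. Zbp1, a sensor of Z-form nucleic acid, had 4518, 4392, 4956, 4392 and 4713 normalized counts in cKO Tregs, against 5652, 5597, 6211 and 5828 in WT Tregs, a fall to 0.789 times the WT level (log2 fold change -0.34, SE 0.08, adjusted p = 0.0229). The groups did not overlap, and the call was lost without cKO replicate 1, 2 or 4 or WT replicate 3 (adjusted p of up to 0.0742). In CD25lo Tregs Zbp1 had 6532 and 7071, against 6838, 7059 and 5192 in CD25hi Tregs (log2 fold change 0.11, SE 0.11, adjusted p = 0.7295). The RNA helicase Ddx58, which encodes RIG-I, had 4831, 5132, 4996, 4232 and 4899 in cKO and 4960, 4208, 5524 and 5338 in WT Tregs (log2 fold change -0.05, SE 0.09, adjusted p = 0.8330), and 6034 and 6458 in CD25lo and 5224, 5303 and 4430 in CD25hi Tregs (log2 fold change 0.33, SE 0.12, adjusted p = 0.1889). Thus Ddx58 overlapped between cKO and WT, and in the bins its higher values in CD25lo did not pass the test. Ifih1, which encodes the sensor MDA5, had 1705, 1726, 2083, 1877 and 2430 in cKO and 2460, 2811, 2451 and 2491 in WT Tregs, which did not overlap and did not pass the test (log2 fold change -0.39, SE 0.12, adjusted p = 0.0916). In the bins Ifih1 had 2350 and 2771 in CD25lo and 2550, 3407 and 2231 in CD25hi Tregs (log2 fold change -0.07, SE 0.17, adjusted p = 0.8987). Dhx58, encoding the regulator LGP2, lay at 1295 to 1481 in cKO and 1106 to 1438 in WT Tregs, with overlap.

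**Figure D4:**
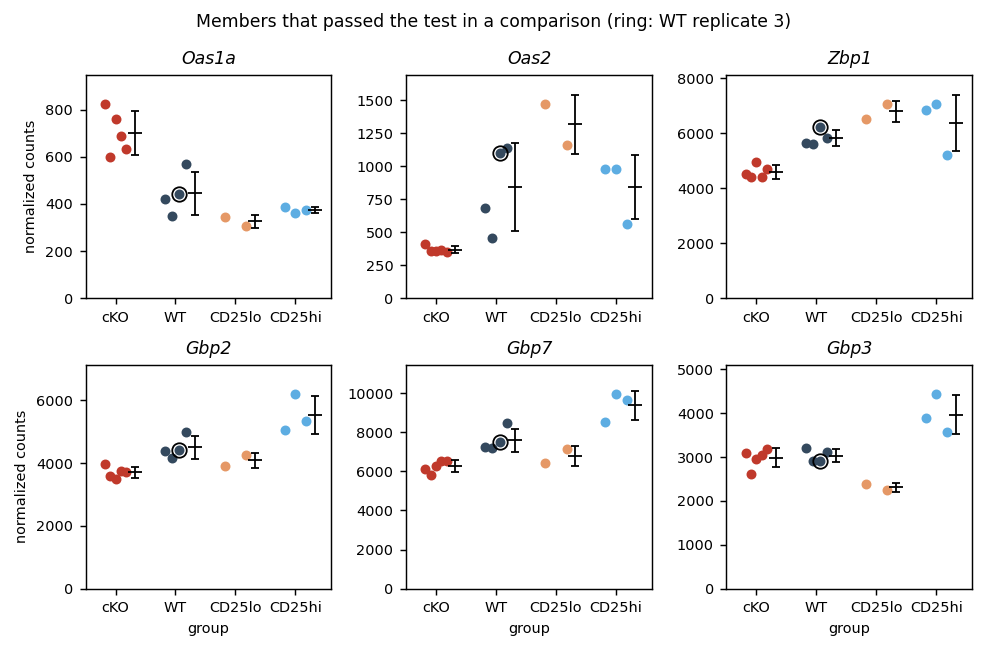
Normalized counts of the 6 members that passed the test in a comparison. Each point is a library, the bar beside each group is its mean ± SD, and a ring marks WT replicate 3, the female WT library. For Oas2, Zbp1, Gbp2 and Gbp7 all cKO points lie below all WT points, for Oas1a above them, and Gbp3 is lowest in CD25lo Tregs.

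The 3 IFIT genes encode related antiviral proteins, of which IFIT1 binds viral RNA lacking host cap marks. All 3 estimates were below 0 in cKO Tregs and above 0 in CD25lo Tregs, and none passed the limma test, while DESeq2 called Ifit1 lower in cKO Tregs (adjusted p = 0.0383). Ifit2 had 1929, 2077, 1956, 1909 and 1908 normalized counts in cKO Tregs, against 2403, 2412, 2505 and 2055 in WT Tregs (log2 fold change -0.26, SE 0.09, adjusted p = 0.1368), so that only WT replicate 4 fell inside the cKO range. In CD25lo Tregs it had 2370 and 3088, against 2206, 2576 and 2458 in CD25hi Tregs (log2 fold change 0.17, SE 0.12, adjusted p = 0.5856). Ifit1 ranged from 682 to 856 in cKO and 936 to 1204 in WT Tregs without overlap (log2 fold change -0.45, SE 0.14, adjusted p = 0.0786). Ifit3 ranged from 220 to 386 in cKO and 64.4 to 626 in WT Tregs (log2 fold change -0.12, SE 0.46, adjusted p = 0.9409), where WT replicate 2 held the lowest value and the other 3 WT libraries had 461 to 626. The fit without WT replicate 2 was the only alternative that called Ifit3 (log2 fold change -0.87, SE 0.21, adjusted p = 0.0271 from limma). The check of single libraries given below did not flag this library for Ifit3. Ifit3 has a close copy, Ifit3b, and reads shared by the copies could go to either.

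The 11 antiviral effectors act in different ways, some of them on viral RNA, nucleotides or membranes. None passed the limma test in either comparison, while DESeq2 called Rnf213, Rtp4 and Ifi35 lower in cKO Tregs, and 8 of the 11 estimates were below 0 in cKO Tregs. Samhd1, a dNTP hydrolase that starves reverse transcription, had 38366, 38073, 36554, 33136 and 33428 normalized counts in cKO and 34615, 36867, 36622 and 42085 in WT Tregs (log2 fold change -0.06, SE 0.06, adjusted p = 0.7006). In the bins it had 38931 and 37863 in CD25lo, against 43892, 45001 and 44150 in CD25hi Tregs, which did not overlap and did not pass the test (log2 fold change -0.21, SE 0.09, adjusted p = 0.2943). Rnf213, a large E3 ubiquitin ligase, had 24220, 22683, 23497, 23621 and 22916 in cKO Tregs, against 27116, 24725, 34441 and 33774 in WT Tregs, again without overlap (log2 fold change -0.35, SE 0.10, adjusted p = 0.0527). It was just outside the threshold, and it was called lower under 8 of the alternatives tried, edgeR and DESeq2 among them. In CD25lo Tregs Rnf213 had 37711 and 33593, against 33910, 36567 and 27026 in CD25hi Tregs (log2 fold change 0.14, SE 0.13, adjusted p = 0.6887).

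The remaining effectors were read by their ranges. Ifi35 lay at 1710 to 1821 in cKO and 2013 to 2354 in WT Tregs without overlap (log2 fold change -0.31, SE 0.09, adjusted p = 0.0696), and Rtp4, which restricts flaviviruses, at 918 to 1532 in cKO and 1383 to 1944 in WT Tregs (log2 fold change -0.48, SE 0.14, adjusted p = 0.0632), and neither passed the test. In the bins Rtp4 lay at 1682 to 1896 in CD25lo, above 1215 to 1542 in CD25hi Tregs (log2 fold change 0.33, SE 0.19, adjusted p = 0.4665). Of the 11 effectors, Samhd1 and Rtp4 were the ones whose bins did not overlap. The tetherin gene Bst2 lay at 892 to 1386 in cKO and 1234 to 1472 in WT Tregs, and Trim30a at 5281 to 5673 in cKO and 5448 to 6133 in WT Tregs, with overlap. Xaf1 lay at 1377 to 1576 in cKO and 910 to 2039 in WT Tregs, and Isg20, an RNA exonuclease, at 1079 to 1650 in cKO and 1006 to 1464 in WT Tregs. The GTPase gene Mx1 lay at 566 to 625 in cKO and 458 to 803 in WT Tregs, and viperin (Rsad2) at 330 to 687 in cKO and 130 to 688 in WT Tregs. The lowest was Ifi44, at 45 to 107 in cKO and 57.9 to 156 in WT Tregs, where the estimate of -0.55 on the log2 scale had a standard error of 0.48.

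Interferon regulatory factors are the transcription factors of the response. Irf1 had 8675, 8658, 9583, 10155 and 10810 normalized counts in cKO Tregs, against 13005, 12126, 11468 and 9935 in WT Tregs (log2 fold change -0.28, SE 0.08, adjusted p = 0.0746), with WT replicate 4 inside the cKO range, and DESeq2 called it lower (adjusted p = 0.0171). The summed immediate early genes were also highest in WT replicates 1 to 3, and within cKO in replicates 4 and 5. They were 691668, 659489, 642518 and 245648 in WT replicates 1 to 4, and 546787 in cKO replicate 4. CD25lo replicate 1 (10386) and CD25hi replicate 1 (10246) had Irf1 values above cKO replicate 4 and below cKO replicate 5, with sums of 255081 and 225708. The other bin libraries lay below cKO replicate 4 in Irf1. The part of handling in the Irf1 values was not tested. In CD25lo Tregs Irf1 had 10386 and 9402, against 10246, 8964 and 9747 in CD25hi Tregs (log2 fold change 0.04, SE 0.11, adjusted p = 0.9386). Irf9 had 5564, 5612, 5873, 5135 and 5872 in cKO and 6057, 5364, 6246 and 7644 in WT Tregs (log2 fold change -0.16, SE 0.08, adjusted p = 0.3325), and 6718 and 6911 in CD25lo and 6923, 6664 and 6697 in CD25hi Tregs (log2 fold change 0.01, SE 0.11, adjusted p = 0.9996). Irf7, the factor that amplifies type I interferon, ranged from 2619 to 3819 in cKO and 2386 to 3929 in WT Tregs, and from 4441 to 5045 in CD25lo and 3220 to 4318 in CD25hi Tregs without overlap between the bins (log2 fold change 0.32, SE 0.18, adjusted p = 0.4761).

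ISG15 is a ubiquitin-like modifier, and USP18 removes it and restrains IFNAR signaling. Isg15 ranged from 355 to 512 in cKO, 274 to 538 in WT, 398 to 569 in CD25lo and 219 to 594 in CD25hi Tregs. Usp18 ranged from 1162 to 1465 in cKO, 668 to 1313 in WT, 1446 to 1680 in CD25lo and 1396 to 1508 in CD25hi Tregs. Both overlapped between cKO and WT and neither passed the test (log2 fold change 0.07, SE 0.27, adjusted p = 0.9429 for Isg15, and log2 fold change 0.29, SE 0.15, adjusted p = 0.3669 for Usp18). PARP9, PARP14 and DTX3L modify proteins with ADP-ribose and ubiquitin, the PARP9 and DTX3L proteins as a complex. Parp14 had 10547, 11688, 11092, 10049 and 11365 normalized counts in cKO Tregs, against 12085, 11713, 13192 and 12546 in WT Tregs, which did not overlap by a narrow margin (log2 fold change -0.18, SE 0.06, adjusted p = 0.1477). In the bins Parp14 had 14809 and 13824 in CD25lo and 13518, 15118 and 12918 in CD25hi Tregs (log2 fold change 0.05, SE 0.09, adjusted p = 0.8580). Dtx3l had 7991, 8613, 8152, 8554 and 8694 in cKO and 9191, 7781, 8726 and 10545 in WT Tregs (log2 fold change -0.10, SE 0.08, adjusted p = 0.5825), and 10393 and 9925 in CD25lo and 9446, 11667 and 10042 in CD25hi Tregs (log2 fold change -0.03, SE 0.11, adjusted p = 0.9597). Parp9 lay at 3407 to 3895 in cKO and 3616 to 4122 in WT Tregs with overlap, and at 4422 to 4779 in CD25lo, above 3847 to 4089 in CD25hi Tregs (log2 fold change 0.22, SE 0.09, adjusted p = 0.2807).

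The antigen processing members feed peptides to MHC class I. None passed the limma test, while DESeq2 called Tap1 higher in cKO Tregs (adjusted p = 0.0497) and Psmb8 lower in CD25lo Tregs (adjusted p = 0.0182), and Psmb8 was also called by limma without WT replicate 2 (adjusted p = 0.0447). B2m, the light chain of MHC class I, had 51610, 46143, 62018, 56120 and 60095 normalized counts in cKO and 61698, 64101, 55828 and 52250 in WT Tregs (log2 fold change -0.09, SE 0.09, adjusted p = 0.6956), and 52352 and 51399 in CD25lo and 50170, 61005 and 51991 in CD25hi Tregs (log2 fold change -0.06, SE 0.12, adjusted p = 0.8701). Tap1, a subunit of the peptide transporter, had 18452, 18243, 19296, 18022 and 18630 in cKO Tregs, all above 16932, 16241, 15522 and 17827 in WT Tregs (log2 fold change 0.16, SE 0.06, adjusted p = 0.1594). In the bins Tap1 had 19509 and 18859 in CD25lo and 20130, 17695 and 17634 in CD25hi Tregs (log2 fold change 0.06, SE 0.08, adjusted p = 0.8086). The immunoproteasome subunit Psmb8 overlapped between cKO and WT and ranged from 8382 to 9269 in CD25lo, below 10883 to 11164 in CD25hi Tregs (log2 fold change -0.32, SE 0.09, adjusted p = 0.0856). Its partner Psmb9 lay at 4972 to 5138 in CD25lo and 4811 to 5558 in CD25hi Tregs, with overlap.

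Whether a member changed differently in the 2 comparisons, which share no library, was tested for each gene as cKO minus WT less CD25lo minus CD25hi. The difference passed the test for Gbp3, above 0 (0.75 on the log2 scale, SE 0.13, adjusted p = 0.0118), where 0.671% of all genes did, and for Oas2, below 0 (-1.78 on the log2 scale, SE 0.40, adjusted p = 0.0375), where 0.363% of all genes did. Oas2 was lower in cKO and had a positive estimate in CD25lo Tregs. The call for Gbp3 was lost without CD25lo replicate 2 (adjusted p = 0.0649), and that for Oas2 in 9 of the 14 fits that left out 1 library, all but those without cKO replicate 2, WT replicate 1, 2 or 4 or CD25hi replicate 2 (up to 0.1240). For the other members the difference was not called, and 27 of the 41 estimates were below 0, as were 7472 of the 16241 over all genes.

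With sex of the library as a term, 0 of 41 members passed in cKO against WT Tregs, and 22 of all genes did, against 572 without it. That fit rests on WT replicate 3 as the only female WT library. Its estimates and the values of that library given below are therefore the same comparison. With this term the estimates were -1.58 for Oas2 (SE 0.37, adjusted p = 0.1445 from limma) and -0.44 for Zbp1 (SE 0.13, adjusted p = 0.3675). They were -0.26 for Gbp2 and Gbp7 and 0.65 for Oas1a. Their direction could not change, because the cKO and WT values of these members did not overlap. WT replicate 3 lay above all 5 cKO libraries for 24 of the 41 members, where 24% of all genes did, below them for 2, where 21% did, and within their range for 15. For the members called in cKO Tregs its side was fixed in advance, as their groups did not overlap. WT replicate 3 had 1102 normalized counts of Oas2, 6211 of Zbp1, 4418 of Gbp2 and 7510 of Gbp7, each above all cKO values, and 442 of Oas1a, below them. Without WT replicate 3, 0 members passed, with limma adjusted p values of 0.0501 for Oas2 and from 0.0629 (Gbp7) to 0.0815 (Gbp2) for the others. In the sorted bins all libraries were male by these genes, so sex does not divide CD25lo from CD25hi Tregs.

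Per kilobase of exon (GENCODE, GRCm38), the members spanned a wide range of levels, given here in the order of the WT means. B2m led, at 64183 normalized counts per kilobase in cKO and 67987 in WT Tregs. Samhd1 followed at 3925 in cKO and 4104 in WT, then Igtp at 2848 in cKO and 3099 in WT, and Tap1 at 3384 in cKO and 3037 in WT Tregs, so that Tap1 lay above Igtp in cKO. Ifi44 was lowest at 11.7 per kilobase in cKO and 17.3 in WT Tregs. Next in WT were Oasl1 at 114 in cKO and 89.5 in WT and Rsad2 at 107 in cKO and 97.7 in WT Tregs, whereas in cKO Oasl2 (70.8) and Oas2 (82.9) lay below both.

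Libraries of one group also differed from each other across many members. The mean over the 41 members of the log2 level relative to the gene mean, given as a description, lay between -0.24 and -0.06 in cKO, between -0.30 and 0.10 in WT, at 0.18 and 0.20 in CD25lo and between 0.02 and 0.27 in CD25hi Tregs. WT replicate 2 was the lowest of all 14 libraries and held the lowest value in its group for 24 of the 41 members, among them Ifit3 (64.4 normalized counts), Oasl1 (45.9), Usp18 (668) and Irf7 (2386). CD25hi replicate 2 was the highest and held the highest of all 14 values for 17 members. Leaving out single libraries moved the count of members called lower in cKO Tregs between 0 (without WT replicate 3) and 8 (without CD25hi replicate 2), against 4 with all libraries.

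**Figure D5:**
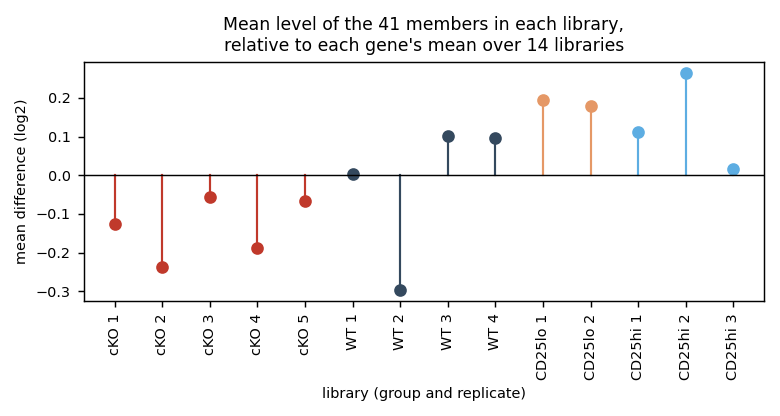
Mean over the 41 members of log2(normalized count + 1) minus the gene mean over 14 libraries, one point per library. All 5 cKO libraries lie below 0, WT replicate 2 is lowest at -0.30 and CD25hi replicate 2 highest at 0.27.

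Of the wider pathway, 125 further genes were read in 5 lists (ligands, receptors and signal transducers, nucleic acid sensing, further interferon-stimulated genes and antigen presentation), of which 113 passed the filter. In cKO Tregs limma called 3 of the 113 higher, where 2.04% of all genes were, and 4 lower, where 1.48% were. DESeq2 called 7 higher and 10 lower, and 898 of all genes in either direction. Among 10 ligands, Ifna1, Ifna2, Ifna4, Ifnb1, Ifnk, Ifnl2 and Ifnl3 had 0 reads in every library, which allows up to 3 reads in each. Ifng alone passed the filter, with 306, 178, 361, 493 and 522 normalized counts in cKO and 368, 386, 327 and 178 in WT Tregs (log2 fold change 0.20, SE 0.41, adjusted p = 0.8699), and 77.3 and 65.6 in CD25lo and 81.6, 43.8 and 178 in CD25hi Tregs. The libraries hold sorted Tregs, so ligands made by other cells were not measured.

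Of 15 tested receptors and signal transducers, 1 rose and 1 fell in cKO Tregs. Ifngr1, the ligand-binding chain of the interferon gamma receptor, had 10644, 9438, 8841, 11829 and 9190 in cKO Tregs, against 7798, 7507, 7396 and 4969 in WT Tregs (log2 fold change 0.54, SE 0.11, adjusted p = 0.0096). Socs1, the inhibitor of JAK kinases that restrains interferon gamma signaling, had 1731, 1896, 1920, 1783 and 1751 in cKO Tregs, against 2222, 2240, 2142 and 2564 in WT Tregs (log2 fold change -0.33, SE 0.08, adjusted p = 0.0197). Neither pair overlapped, and the nearest uncalled genes were Ptpn6 (log2 fold change -0.26, SE 0.07, adjusted p = 0.0567) and Ifngr2 (log2 fold change -0.35, SE 0.12, adjusted p = 0.1476). Of 15 tested sensing genes, the DNA sensor Aim2 rose (log2 fold change 0.38, SE 0.10, adjusted p = 0.0467). Of 61 further interferon-stimulated genes, Lgals3bp rose (log2 fold change 0.34, SE 0.07, adjusted p = 0.0103) and Gbp4 fell. Of 21 antigen presentation genes, 2 fell, the class I gene H2-T22 (log2 fold change -0.34, SE 0.08, adjusted p = 0.0133) and the immunoproteasome subunit Psmb10 (log2 fold change -0.29, SE 0.07, adjusted p = 0.0359). By limma none of this list rose, but limma-voom and DESeq2 called the class I gene H2-Q6 higher. Over the lists together, edgeR with TMM scaling, limma-voom and DESeq2 also called Apobec3 higher. DESeq2 also called Ifi27l2a and Ly6e higher and Erap1, Gbp9, H2-Ab1, Psme1, Ptpn6 and Slfn5 lower. Aim2 was not called by edgeR with the authors' size factors, nor Psmb10 by limma-voom. Fits that left out a library or held a sex term are not given for these genes. In CD25lo against CD25hi Tregs 0 of the 113 were called in either direction by limma, edgeR or limma-voom. DESeq2 called 2 lower (Gbp5 and H2-Aa), and 674 of all genes in either direction. At an unadjusted p under 0.05 from limma there were 7 higher, where 6.51% of all genes were, and 8 lower, where 6.95% were. The median over the 113 genes was -0.00 in cKO and 0.02 in CD25lo Tregs.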

How the data were processed

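RNA-seq of sorted Tregs was read from 1 table of 14 libraries. According to the study's methods, the authors prepared single-end libraries, aligned them with STAR 2.7.2b to GRCm38 and normalized them with DESeq2 1.24.0. The counting tool and its strand setting are not given in the sources used here. The values used are the authors' normalized counts, a signal in reads divided by a size factor and deposited with 1 decimal. Whole reads could be recovered for 100.0% of values (tolerance 0.055), giving 30055573 to 35226685 reads (median 31942230) and 13723 to 18200 genes with a read in each library. The table had 55536 rows, 48363 of them with values, of which 24698 had no read in any library. Its columns of the authors' own comparisons and transformed values were not used.

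The 16241 genes that reached 10 normalized counts in 2 or more libraries entered the test, limma-trend (limma 3.58.1) on log2 values after adding a pseudocount of 1, with all 4 groups sharing the spread and a Benjamini-Hochberg adjusted p under 0.05. Fold changes are on that scale and understate changes of low genes. Alternatives were edgeR 4.0.16, DESeq2 1.42.0 and limma-voom on the recovered reads, TMM scaling, no filter or a filter of 100, pseudocounts of 0.5 and 5, only the groups compared, a replicate block, sex of the library as a term (female above 1000 normalized counts of Xist), the unadjusted p, and leaving out each library. The tests were checked on simulated data in R 4.3.3.

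The members and the other lists were chosen with earlier results of these data known. Values in each library are given for members that passed a test and for up to 2 further members of each role with the highest mean, and for other lists the called genes and up to 4 more by smallest adjusted p. Promoters and miRNAs are from RefSeq (GRCm38.p6), 3′ UTRs and exon lengths from GENCODE (GRCm38).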

Additional observations from a re-analysis of the deposited data

Results flagged for a closer look

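In 5 of the 82 groups of 4 or 5 libraries examined, 1 per member in cKO and in WT Tregs, 1 library stood apart from the rest of its group by Dixon's criterion. Chance gives such a library in about 1 in 20 groups. Bst2 had its lowest normalized count, 891.9, in cKO replicate 2, and the remaining cKO libraries lay at 1244 to 1386. Ifit2 was highest in the same library, at 2076.7, with 1908 to 1956 in the others. Oas2 was highest in cKO replicate 1, at 411.5, with 352.5 to 365.1 in the other cKO libraries, all of them below the lowest WT library. Ifih1 was highest in WT replicate 2, at 2810.9, with 2451 to 2491 in the other WT libraries. Iigp1 was lowest in cKO replicate 4, at 2390.5, with 3038 to 3302 in the other cKO libraries.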

How the results depend on the processing

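No called member changed direction under any alternative, and the scalings tried moved the median of all genes by no more than 0.017 on the log2 scale. For calls in cKO or CD25lo Tregs, fits that left out a library or held the sex term could not reverse the direction. The groups of each called member did not overlap there. In cKO against WT Tregs, DESeq2 called 2 members higher and 9 lower (898 of all genes), a fit without the filter called 2 lower, and a fit with sex of the library as a term called 0 higher and 0 lower (22 of all genes). An unadjusted p under 0.05 gave 2 higher and 13 lower (2619 of all genes). In CD25lo against CD25hi Tregs, DESeq2 called 674 of all genes, the fit to these groups alone 160, and the unadjusted p gave 3 members higher and 5 lower (2185 of all genes). For the difference of the contrasts, DESeq2 called 2 members lower (565 of all genes), no filter 0 lower (83 of all genes), a filter of 100 normalized counts 256 of all genes, the sex term 0 higher and 0 lower (21 of all genes), and the unadjusted p 3 higher and 11 lower (2235 of all genes). The cause of these differences was not tested.

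Leaving out 1 library at a time gave 0 to 1 members higher and 0 to 8 lower in cKO Tregs (349 to 666 of all genes), 0 higher and 1 to 4 lower in CD25lo Tregs (91 to 377), and 0 to 1 higher and 0 to 1 lower for the difference (65 to 218). With all libraries the counts over all genes were 572, 263 and 168. Where 1 CD25lo library remained, it was assumed to vary like the other groups.

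With the replicate number as a block, 0 members were higher and 2 lower in cKO Tregs (290 of all genes). Of the 4 called lower Gbp7 remained (adjusted p = 0.0493), Oas2 (0.0536), Zbp1 (0.0930) and Gbp2 (0.1319) did not, and Rtp4 was gained (0.0273). In CD25lo Tregs Gbp2 was lost (0.1071), 105 of all genes were called, and the difference gave 0 higher and 0 lower (25 of all genes). Deviations of cKO and WT libraries with the same number correlated at -0.41 to -0.08, those of CD25lo and CD25hi libraries at -0.05 and 0.17, and those of WT and CD25hi libraries at 0.04 to 0.10. WT and CD25hi libraries with different numbers correlated at -0.11 to 0.06. No 2 groups with 3 or more pairs of the same number had every correlation above 0.1, and the libraries were taken to share only a number. The check cannot decide this for the bins, because the deviations of 2 CD25lo libraries mirror each other. CD25hi replicate 1 correlated at 0.17 with CD25lo replicate 1 and at -0.17 with CD25lo replicate 2.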

Other observations

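MHC class II genes, which interferon gamma induces in antigen-presenting cells through the transactivator Ciita, were read in the antigen presentation list and did not pass the limma test. DESeq2 called H2-Ab1 lower in cKO Tregs. Cd74, the invariant chain, had 1138, 715, 1249, 1610 and 1701 normalized counts in cKO Tregs, against 4211, 2874, 2850 and 952 in WT Tregs (log2 fold change -0.96, SE 0.32, adjusted p = 0.1156 from limma). H2-Ab1, a class II beta chain, had 46.4, 16.7, 35.0, 145 and 82.6 in cKO and 578, 442, 462 and 34.9 in WT Tregs (log2 fold change -2.31, SE 0.84, adjusted p = 0.1550). WT replicates 1 to 3 were thus high and WT replicate 4 was not. The summed myeloid markers were likewise higher in WT replicates 1 to 3 (7447, 4177 and 5500) than in WT replicate 4 (1651). They were 4873 in cKO replicate 4, above WT replicate 2, and 1260 to 2401 in the other cKO libraries. In cKO replicate 4 Cd74 (1610) and H2-Ab1 (145) lay below WT replicate 2 (2874 and 442). The part of myeloid cells in these values was not tested. In the sorted bins Cd74 had 683 and 1167 in CD25lo and 1371, 1111 and 1297 in CD25hi Tregs.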
